A study of Mus musculus with 12 samples.

Results

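The genes described here are 9 IL-4 and IL-13 response genes, namely Retnla, Chil3, Chil4, Il4ra, Il13ra1, Il13ra2, Alox15, Clec10a and Mrc1, chosen by symbol. They are 9 of the 18193 genes that have a probe set with a single gene symbol on the arrays. Each gene is represented by its probe set with the highest mean over all 12 arrays. Liver RNA of BALB/c mice was hybridised to these arrays in a study of acute autoimmune hepatitis, 1 mouse per array and 3 mice per group. Mice labelled IFNko TGFB1 KO lack both transforming growth factor beta 1 (Tgfb1) and interferon gamma (Ifng), and mice labelled TGFB KO lack Tgfb1 only. Mice labelled INFko TGFB+ lack Ifng and keep Tgfb1, although how many working copies they carry is not stated, and WT mice are BALB/c wild-type controls. The design text calls the Tgfb1-positive controls littermates. The labels used here give no age, sex or Cre driver. The groups allow the effect of Tgfb1 loss to be read with Ifng intact (TGFB KO against WT) and in mice labelled Ifng knockout (IFNko TGFB1 KO against INFko TGFB+).

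Interleukin 4 (IL-4) and interleukin 13 (IL-13) are the cytokines of type 2 immunity, made by type 2 T helper cells, innate lymphoid cells, basophils and other cells. They signal through receptor complexes that contain the IL-4 receptor alpha chain and activate the transcription factor STAT6, which switches macrophages to the state called alternative activation. IFN-gamma drives the opposed classical activation and restrains many of these genes.

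The 9 genes fall into receptors, secreted products and products of the macrophage itself. Il4ra encodes the receptor chain shared by IL-4 and IL-13, Il13ra1 encodes its partner in the receptor that binds IL-13, and Il13ra2 encodes a high-affinity IL-13 receptor known mainly as a decoy. Retnla (RELM-alpha, Fizz1) is a secreted resistin-like protein, and Chil3 (Ym1) and Chil4 (Ym2) are secreted chitinase-like proteins. Alox15 is a lipoxygenase that oxidises polyunsaturated fatty acids and is carried by mouse eosinophils and resident peritoneal macrophages. Clec10a (Mgl1) is a lectin of macrophages and dendritic cells that binds galactose-type sugars. Mrc1 is the mannose receptor, an endocytic lectin that liver sinusoidal endothelial cells also carry.

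Promoter windows from RefSeq on build GRCm38.p6, running from 250 bases before to 50 bases after the start site, were at hand for 7 of the 9 genes. The windows were searched for TTCNNNNGAA, the spacing that STAT6 is known to favour, which reads the same on both strands. That of Retnla is shown because it alone among the 7 holds a match, and those of Chil3 and Chil4 because these genes are near-identical. Capitals mark the match, and the windows lie at chr16:48842359-48842658 on the plus strand for Retnla, chr3:106167515-106167814 on the minus strand for Chil3 and chr3:106219430-106219729 on the minus strand for Chil4.
Retnla: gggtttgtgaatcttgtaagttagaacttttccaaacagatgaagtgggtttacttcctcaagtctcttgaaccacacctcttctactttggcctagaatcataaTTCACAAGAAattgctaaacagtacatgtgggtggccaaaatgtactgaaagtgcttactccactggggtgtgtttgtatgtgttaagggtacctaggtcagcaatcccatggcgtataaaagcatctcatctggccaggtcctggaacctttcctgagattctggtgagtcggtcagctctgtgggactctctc
Chil3: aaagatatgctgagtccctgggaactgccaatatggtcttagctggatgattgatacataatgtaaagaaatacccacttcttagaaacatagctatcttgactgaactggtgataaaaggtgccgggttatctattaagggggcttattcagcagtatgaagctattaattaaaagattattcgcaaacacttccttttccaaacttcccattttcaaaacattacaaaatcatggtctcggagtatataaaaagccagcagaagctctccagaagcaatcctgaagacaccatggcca
Chil4: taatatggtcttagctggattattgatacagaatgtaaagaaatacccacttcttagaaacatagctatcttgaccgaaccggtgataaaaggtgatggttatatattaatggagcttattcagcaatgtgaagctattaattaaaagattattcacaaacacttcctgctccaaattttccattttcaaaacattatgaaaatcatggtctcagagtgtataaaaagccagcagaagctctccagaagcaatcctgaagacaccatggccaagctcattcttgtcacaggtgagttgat
Retnla holds 1 match to TTCNNNNGAA, reading TTCACAAGAA and starting at position -145 from the start site. Of all 32851 windows in the table, 6.95% hold this motif. No match to this motif was found in the windows of Chil3, Chil4, Il4ra, Il13ra1, Il13ra2 and Mrc1. Other spacings were not searched. The windows of Chil3 and Chil4, neighbours on chromosome 3, were identical at 251 of 270 aligned positions (92.96%), with 2 further gap positions. A match is a description of letters and does not show that a factor binds there.

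Signal per probe set is a linear intensity on arrays with a shared trimmed mean of 150.0. Tests ran on normalized log2(signal + 16) with limma over the 12755 genes above a filter on dim probe sets, and p-values were adjusted by the Benjamini-Hochberg method at a threshold of 0.05. The pseudocount of 16 shrinks the fold changes of dim genes. The array IFNko TGFB1 KO 1 stood apart from the rest, with a median signal of 61.3 against 33.8 to 42.6 on the other 11 and rank correlations with them of 0.754 to 0.808, against 0.816 to 0.911 among those 11. The Tgfb1 probe set averaged 40.2 ± 13.9 in IFNko TGFB1 KO livers against 188 ± 29.5 in INFko TGFB+ livers, and 68.1 ± 21.2 in TGFB KO livers against 319 ± 184 in WT livers (SD, n = 3 each). The Ifng probe set averaged 60.9 ± 20.5 in IFNko TGFB1 KO livers, 127 ± 64.5 in TGFB KO livers, 5.36 ± 3.72 in INFko TGFB+ livers and 18.4 ± 10.8 in WT livers. Where that probe set lies relative to the deleted part of Ifng is not stated, and it leaves the Ifng label of the arrays labelled IFNko TGFB1 KO unchecked. Hepatocyte markers were strong on every array, with a summed signal over 8 genes of 108852 to 158553, 135555 to 164686, 150862 to 186772 and 178373 to 185887 in the same order of groups.

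Loss of Tgfb1 came with higher Retnla, Chil3, Il13ra2, Clec10a and Mrc1 in livers labelled Ifng knockout. With Ifng intact, Il4ra and Mrc1 were higher. Il13ra2 was the gene whose response differed between these settings by a test of the difference itself. All 9 genes passed the filter, but Il13ra2, Clec10a and Chil4 would have fallen under it without the IFNko TGFB1 KO arrays, at mean log2 levels of 4.98, 5.05 and 5.11 against a limit of 5.25. Chil4 would also have done so without the INFko TGFB+ arrays, at 5.24.

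**Figure D1:**
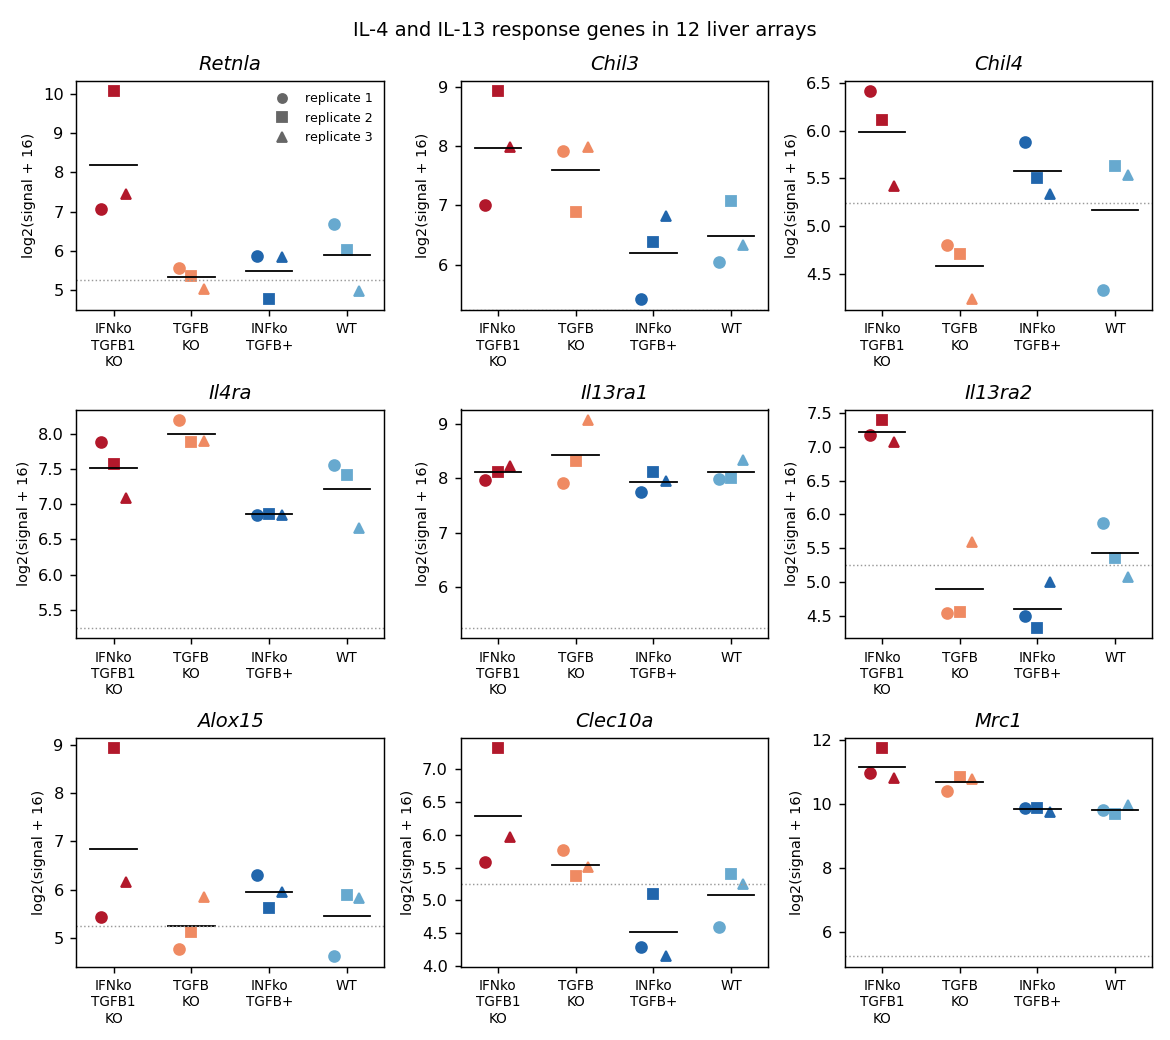
Normalized log2(signal + 16) of the 9 genes in each liver (symbols are replicates, 3 mice per group, bars are group means, and the dotted line is the filter at 5.25). Il13ra2 sits between 7.07 and 7.40 in all IFNko TGFB1 KO livers and at or below 5.87 in every other liver. Retnla, Alox15, Chil3, Clec10a, Mrc1 and Il13ra2 reach their highest level in IFNko TGFB1 KO 2.

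Among the receptors, Il13ra2 gave the clearest separation. Il13ra2 signal was 149, 168 and 120.4 in the IFNko TGFB1 KO livers and 6.49, 6.89 and 29.6 in the TGFB KO livers. It was 6.29, 3.16 and 14.2 in the INFko TGFB+ livers and 46.5, 25.6 and 16.4 in the WT livers. Every IFNko TGFB1 KO liver lay above all 9 other livers, with no overlap. Il13ra2 rose in IFNko TGFB1 KO against INFko TGFB+ livers by 2.60 ± 0.31 (log2 fold change ± SE, limma adjusted p = 0.000204). Its INFko TGFB+ signals all lay under the filter signal of 22.0, and this value ran from 1.43 to 3.96 over the alternatives other than leaving out an array. Its difference in TGFB KO against WT livers was -0.54 ± 0.31, with a 95% interval of -1.21 to 0.13 (limma adjusted p = 0.238). Without TGFB KO 3, the only TGFB KO liver above 7, this fall passed the threshold at -0.89 (limma adjusted p = 0.0423).

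The difference between these effects of Tgfb1 loss on Il13ra2 was 3.14 ± 0.43 on the log2 scale, with a 95% interval of 2.19 to 4.10 and a limma adjusted p of 0.0064. Of all genes tested, 0.87% passed in this test of the difference, and Il13ra2 was the only 1 of the 9 to do so. The difference was larger for Il13ra2 than for 99.98% of the genes tested. However, Il13ra2 passed the filter only with the IFNko TGFB1 KO arrays, where it is high. The share of 0.87% and this rank therefore do not bear on how Il13ra2 compares with all genes. Without a filter Il13ra2 also passed in the difference of effects, where 0.445% of all 18193 genes did. Il13ra2 was also higher in IFNko TGFB1 KO than in TGFB KO livers, by 2.32 ± 0.31 (limma adjusted p = 0.0013). Without the array IFNko TGFB1 KO 1 the difference of effects was 3.18 (limma adjusted p = 0.0146). In bulk liver RNA, more cells of a type and more RNA per cell cannot be told apart.

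Il4ra, the shared chain, had signals of 226, 191 and 123 in the IFNko TGFB1 KO livers and 281, 227 and 226 in the TGFB KO livers. It had 95.3, 95.4 and 93.7 in the INFko TGFB+ livers and 168, 146 and 79.7 in the WT livers. The TGFB KO livers were all above the WT livers, and the IFNko TGFB1 KO livers were all above the INFko TGFB+ livers. Il4ra rose in TGFB KO against WT by 0.78 ± 0.25 (1.72-fold, limma adjusted p = 0.0446). Its difference of 0.65 ± 0.25 in IFNko TGFB1 KO against INFko TGFB+ missed the threshold (limma adjusted p = 0.0812), and the test of the difference between the effects gave -0.12, with a 95% interval of -0.91 to 0.66. All IFNko TGFB1 KO livers were below all TGFB KO livers, at -0.48 ± 0.25 (limma adjusted p = 0.309). The rise in TGFB KO was lost on leaving out any single TGFB KO or INFko TGFB+ array, WT 2 or WT 3, with limma adjusted p between 0.0588 and 0.142. Without WT 3 or without IFNko TGFB1 KO 3, the rise in IFNko TGFB1 KO against INFko TGFB+ passed the threshold (limma adjusted p = 0.0366 and 0.0302).

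Il13ra1 had signals of 239, 281 and 285 in the IFNko TGFB1 KO livers and 229.9, 311 and 529 in the TGFB KO livers. It had 193, 258 and 221 in the INFko TGFB+ livers and 233, 236 and 303 in the WT livers. The groups overlapped in every comparison. Its log2 differences were 0.17 ± 0.26 in IFNko TGFB1 KO against INFko TGFB+ (95% interval -0.39 to 0.74) and 0.32 ± 0.26 in TGFB KO against WT (95% interval -0.24 to 0.89), with limma adjusted p of 0.67 and 0.411.

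Il4ra and Il13ra1 are also measured by further probe sets. A second Il4ra probe set above the filter, 1423996_a_at, had signals of 199, 270.2 and 147 in TGFB KO livers against 129, 33.2 and 87.5 in WT livers. In a fit over all probe sets above the filter its difference was 1.20 ± 0.40 (limma adjusted p = 0.0649), and that of the probe set used, 1421034_a_at, was 0.78 ± 0.26 (limma adjusted p = 0.0635). For Il13ra1, 4 of 5 probe sets passed the filter and they differed. Probe set 1454783_at had signals of 198, 279.7 and 325 in TGFB KO livers against 75.2, 89.8 and 178 in WT livers, a rise of 1.09 ± 0.29 (limma adjusted p = 0.0245). The other 3 gave 0.79, 0.40 and 0.32 and did not pass. For 1427164_at, which gave 0.79, the TGFB KO livers (247 to 382) were also all above the WT livers (121 to 191). In the difference of the effects, 1427164_at gave -1.14 ± 0.47 and 1454783_at -1.15 ± 0.41 (limma adjusted p = 0.458 and 0.381). The probe set used, 1427165_at, and 1451775_s_at gave -0.15 each. With the mean of all probe sets, Il13ra1 rose in TGFB KO against WT by 0.72 (limma adjusted p = 0.0492). In IFNko TGFB1 KO against INFko TGFB+ no Il13ra1 probe set passed.

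**Figure D2:**
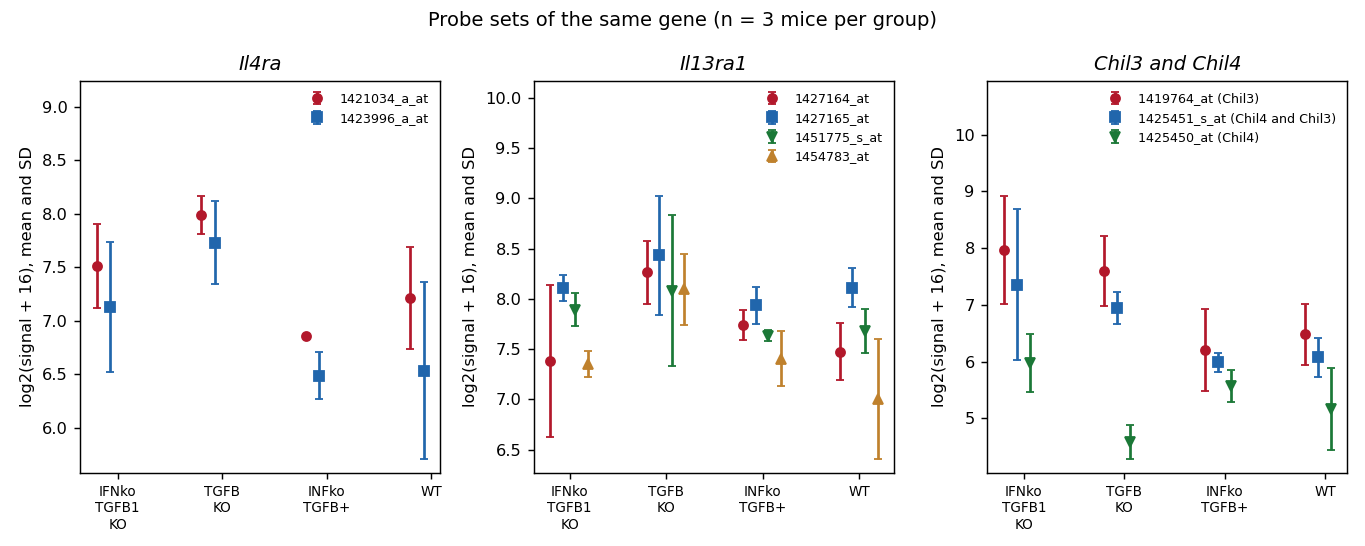
Normalized log2(signal + 16) as mean and SD (n = 3 mice per group) for each probe set above the filter of Il4ra and of Il13ra1, and for the probe sets of Chil3, of Chil4 and of both. Il13ra1 probe set 1454783_at is higher in TGFB KO than in WT livers, while 1427165_at, the brightest, overlaps.

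Among the secreted products, Retnla had signals of 139.9, 1004 and 161 in the IFNko TGFB1 KO livers and 30.7, 23.5 and 15.5 in the TGFB KO livers. It had 40.4, 9.70 and 38.1 in the INFko TGFB+ livers and 85.7, 47.0 and 14.3 in the WT livers. The IFNko TGFB1 KO livers were above all 9 others, and IFNko TGFB1 KO 2 alone stood far above the other livers of its group. Retnla rose in IFNko TGFB1 KO against INFko TGFB+ by 2.69 ± 0.68 (6.47-fold, limma adjusted p = 0.0135) and against TGFB KO by 2.87 ± 0.68 (7.29-fold, limma adjusted p = 0.0343). Its difference in TGFB KO against WT was -0.57 ± 0.68 (limma adjusted p = 0.599). The difference between the effects of Tgfb1 loss was 3.26 ± 0.97, with a 95% interval of 1.14 to 5.38, and did not pass after adjustment over all genes (limma adjusted p = 0.191).

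Without IFNko TGFB1 KO 2, Retnla was higher by 1.74 against INFko TGFB+ (limma adjusted p = 0.026) and by 1.91 against TGFB KO (limma adjusted p = 0.0432). Without IFNko TGFB1 KO 1 these were 3.30 and 3.48 (limma adjusted p = 0.0065 and 0.0224). Without INFko TGFB+ 2 the rise against INFko TGFB+ missed the threshold, at 2.32 (limma adjusted p = 0.0591), as it did with only the 2 groups compared (0.0534). The rise against TGFB KO missed it without any single TGFB KO array and without INFko TGFB+ 1 or 3, with limma adjusted p between 0.0523 and 0.0969, and also without a filter (0.0514). It also missed it with a pseudocount of 1, a replicate block and only the 2 groups compared (limma adjusted p = 0.0565, 0.0537 and 0.121).

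Chil3 had signals of 137, 478 and 237 in the IFNko TGFB1 KO livers and 232, 101 and 239 in the TGFB KO livers. It had 25.0, 62.4 and 91.8 in the INFko TGFB+ livers and 53.1, 111 and 59.6 in the WT livers. The IFNko TGFB1 KO livers were all above the INFko TGFB+ livers, whereas TGFB KO 2 lay below WT 2. Chil3 rose in IFNko TGFB1 KO against INFko TGFB+ by 1.77 ± 0.51 (3.40-fold, limma adjusted p = 0.0247). In TGFB KO against WT it differed by 1.11 ± 0.51, with a 95% interval of -0.01 to 2.22 (limma adjusted p = 0.141), and the difference between the effects was 0.66 ± 0.72 (limma adjusted p = 0.784). The rise did not pass without IFNko TGFB1 KO 2 (1.29, limma adjusted p = 0.0979), IFNko TGFB1 KO 3 (1.76, 0.0509), INFko TGFB+ 1 (1.37, 0.103) or INFko TGFB+ 2 (1.84, 0.0557).

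Chil4 was dimmer, with signals of 96.7, 55.7 and 25.3 in the IFNko TGFB1 KO livers and 11.5, 9.58 and 2.36 in the TGFB KO livers. It had 40.7, 25.2 and 21.8 in the INFko TGFB+ livers and 4.67, 33.9 and 28.6 in the WT livers. The TGFB KO livers all lay below the filter signal of 22.0, and the IFNko TGFB1 KO livers were all above them. Chil4 was higher in IFNko TGFB1 KO than in TGFB KO by 1.40 ± 0.36 (limma adjusted p = 0.0454), but it passed the filter through the IFNko TGFB1 KO and INFko TGFB+ arrays, and without a filter the call was lost (limma adjusted p = 0.0702). With the TGFB KO livers this dim, the log2 difference ran from 0.64 to 2.55 over the alternatives other than leaving out an array. It differed by 0.41 ± 0.36 in IFNko TGFB1 KO against INFko TGFB+ (limma adjusted p = 0.444) and by -0.58 ± 0.36 in TGFB KO against WT (limma adjusted p = 0.273). The rise against TGFB KO was lost without any single TGFB KO or INFko TGFB+ array, WT 3 or IFNko TGFB1 KO 2, with limma adjusted p between 0.0513 and 0.118. Without IFNko TGFB1 KO 1 the gene fell under the filter. Without WT 1, whose signal of 4.67 was the lowest of its group, Chil4 passed as lower in TGFB KO against WT, at -0.998 (limma adjusted p = 0.0438).

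Chil3 and Chil4 are near-identical genes, and 1 further probe set, 1425451_s_at, is assigned to both. Its signals were 79.7, 434 and 132 in the IFNko TGFB1 KO livers and 131, 80.8 and 111 in the TGFB KO livers. It had 44.5, 35.9 and 51.4 in the INFko TGFB+ livers and 68.8, 36.3 and 50.1 in the WT livers. Its difference in IFNko TGFB1 KO against INFko TGFB+ was 1.37 ± 0.50 (limma adjusted p = 0.0825). The signals of the single-symbol probe sets are uncertain to the extent that their probes bind transcripts of both genes, which was not tested.

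Among the products of the macrophage itself, Mrc1 had signals of 1656, 2979 and 1781 in the IFNko TGFB1 KO livers and 1349.7, 1808 and 1771 in the TGFB KO livers. It had 961, 939 and 866 in the INFko TGFB+ livers and 876, 820.1 and 1021 in the WT livers. All Tgfb1-deficient livers were above all Tgfb1-positive livers. Mrc1 rose in IFNko TGFB1 KO against INFko TGFB+ by 1.33 ± 0.23 (2.52-fold, limma adjusted p = 0.002) and in TGFB KO against WT by 0.86 ± 0.23 (1.81-fold, limma adjusted p = 0.0203). The difference between the effects was 0.48 ± 0.33 (95% interval -0.25 to 1.20, limma adjusted p = 0.633). The rise in TGFB KO missed the threshold without WT 1, WT 2, TGFB KO 2 or TGFB KO 3, with limma adjusted p between 0.0534 and 0.0707.

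Clec10a had signals of 51.5, 158 and 45.2 in the IFNko TGFB1 KO livers and 36.9, 23.7 and 27.1 in the TGFB KO livers. It had 3.10, 15.5 and 1.23 in the INFko TGFB+ livers and 9.35, 26.9 and 20.5 in the WT livers. The IFNko TGFB1 KO livers did not overlap the INFko TGFB+ livers, while the TGFB KO livers overlapped the WT livers through TGFB KO 2 and WT 2. Clec10a rose in IFNko TGFB1 KO against INFko TGFB+ by 1.77 ± 0.41 (limma adjusted p = 0.0086). The INFko TGFB+ signals all lay under the filter signal of 22.0, and the log2 difference ran from 0.86 to 3.32 over the alternatives other than leaving out an array. In TGFB KO against WT it differed by 0.46 ± 0.41 (limma adjusted p = 0.463), and the difference between the effects was 1.31 ± 0.58, with a 95% interval of 0.03 to 2.58 (limma adjusted p = 0.407). Without IFNko TGFB1 KO 1 the rise was 2.13 (limma adjusted p = 0.0045), and without IFNko TGFB1 KO 2 the gene fell under the filter.

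Alox15 had signals of 44.3, 480.5 and 54.7 in the IFNko TGFB1 KO livers and 10.7, 17.8 and 39.0 in the TGFB KO livers. It had 59.2, 28.3 and 41.9 in the INFko TGFB+ livers and 9.80, 42.3 and 38.0 in the WT livers. Outside IFNko TGFB1 KO 2 no liver exceeded 59.2, and the groups of each comparison overlapped after normalization. Alox15 differed by 0.89 ± 0.72 in IFNko TGFB1 KO against INFko TGFB+ (limma adjusted p = 0.403) and by -0.20 ± 0.72 in TGFB KO against WT (limma adjusted p = 0.88). Without IFNko TGFB1 KO 2 its difference against INFko TGFB+ was -0.15 (limma adjusted p = 0.837).

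**Figure D3:**
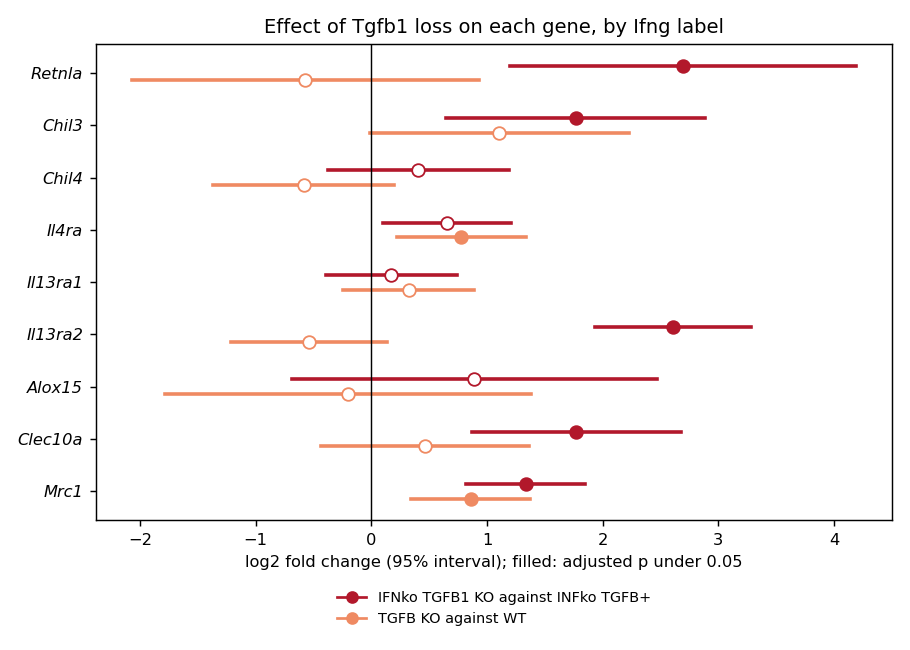
Log2 fold change and 95% interval of each gene for IFNko TGFB1 KO against INFko TGFB+ and for TGFB KO against WT, from limma (n = 3 mice per group, filled points have an adjusted p under 0.05). The intervals of Il13ra2 and of Retnla do not meet between the comparisons, whereas those of Il4ra, Il13ra1 and Mrc1 overlap.

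Counted over the 9 genes, 5 rose in IFNko TGFB1 KO against INFko TGFB+, none fell and 4 did not pass, where 25.8% of all genes tested were called (12.7% higher and 13.1% lower). Of these 5, Il13ra2 and Clec10a passed the filter only with the IFNko TGFB1 KO arrays. Without a filter the same 5 were called, where 15.6% of all 18193 genes were called. The arrays of 6 of the 9 did not overlap and were higher in IFNko TGFB1 KO, against 22.2% of all genes tested, and none was lower without overlap, against 23.3%. The median log2 fold change of the 9 was 1.33, against -0.01 over all genes tested. Il13ra2 and Clec10a are among the 6 without overlap and are high in the arrays that carried them past the filter. The count of 6 and this median therefore do not bear on how the 9 genes compare with all genes. Of the 9 genes, 2 rose in TGFB KO against WT and none fell, where 24.1% of all genes were called (12.2% higher and 11.9% lower). The arrays of those 2 did not overlap, against 18.4% of all genes that were higher and 21.9% that were lower without overlap. The median was 0.32, against -0.06 over all genes. In the difference of the effects 1 of 9 passed as higher, where 0.243% of all genes were higher and 0.627% lower, and the median was 0.99, against 0.01 over all genes. That gene, Il13ra2, passed the filter only with the IFNko TGFB1 KO arrays, where it is high. The count and the median therefore do not bear on how the 9 genes compare with all genes. Without a filter Il13ra2 was again the 1 of 9 called, where 0.445% of all 18193 genes were called.

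In IFNko TGFB1 KO against TGFB KO, 3 of 9 were higher, where 5.36% of all genes were called (2.54% higher and 2.82% lower). Of these 3, Il13ra2 and Chil4 passed the filter only with the IFNko TGFB1 KO arrays, where they are high, so the count does not bear on how the 9 genes compare with all genes. Without a filter, Il13ra2 was the 1 of 9 called. The arrays of these 3, Retnla, Chil4 and Il13ra2, did not overlap and were higher, against 13.2% of all genes, and those of Il4ra did not overlap and were lower, against 9.93%. The same limit holds for the 3 without overlap. This comparison shares its arrays with the 2 effects of Tgfb1 loss, so its values are not separate evidence. Clec10a, Alox15, Mrc1 and Chil3 differed by 0.74, 1.60, 0.48 and 0.38 there and did not pass, with limma adjusted p of 0.333, 0.237, 0.265 and 0.722.

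In INFko TGFB+ against WT none of the 9 genes passed with limma, where 0% of all genes were called and 649 of the 12755 (5.09%) had an unadjusted p under 0.05. Il13ra2 was the 1 member with an unadjusted p under 0.05, at -0.83 ± 0.31 (limma adjusted p = 0.91). Its INFko TGFB+ livers were all below its WT livers, as for 6.67% of all genes, and no member was higher without overlap, against 6.47%. The other log2 differences ran from -0.57 for Clec10a to 0.51 for Alox15. At 3 mice per group, the 95% interval of the Retnla difference spanned -1.90 to 1.10, and that of Mrc1 spanned -0.50 to 0.52.

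Ordered by mean normalized log2 level, Il13ra2 stood at 7.21 in IFNko TGFB1 KO, 4.89 in TGFB KO, 4.61 in INFko TGFB+ and 5.43 in WT livers. The neighbouring WT and TGFB KO levels, and the TGFB KO and INFko TGFB+ levels, overlapped. Retnla stood at 8.19, 5.32, 5.50 and 5.89 in the same groups, and the last 3 overlapped each other. Mrc1 stood at 11.17, 10.68, 9.83 and 9.82, and overlapped between the Tgfb1-deficient groups and between the Tgfb1-positive groups. Clec10a stood at 6.29, 5.54, 4.51 and 5.08, and each neighbouring pair in that order of levels overlapped. Il4ra stood highest in TGFB KO, at 7.99, against 7.51 in IFNko TGFB1 KO, 6.86 in INFko TGFB+ and 7.21 in WT livers.

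Markers of other cells moved with several of these results. All 14 measured Kupffer cell and macrophage markers rose in both effects of Tgfb1 loss, and none passed in IFNko TGFB1 KO against TGFB KO. Their summed signal was 38984 to 55486 in IFNko TGFB1 KO, 52874 to 56327 in TGFB KO, 8649 to 8662 in INFko TGFB+ and 8591 to 10599 in WT livers. Mrc1, Chil3 and Clec10a are carried by macrophages, and the part of macrophage number in their rise was not tested. Of 10 sinusoidal endothelial markers, 3 rose in IFNko TGFB1 KO against INFko TGFB+, and in TGFB KO against WT 3 rose and 1 fell, where 25.8% and 24.1% of all genes were called. Their summed signal was 6349 to 8880.4, 5983 to 7122, 5660.4 to 5723 and 5524 to 6659.9 in the same order of groups.

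Eosinophil markers differed among the IFNko TGFB1 KO livers, where Retnla and Alox15 were also highest in liver 2. The summed signal of 5 measured eosinophil genes was 124, 3513 and 1063 in the IFNko TGFB1 KO livers and 97.9 to 131 in the TGFB KO livers. It was 478 to 896 in the INFko TGFB+ livers and 219 to 387 in the WT livers. Epx, eosinophil peroxidase, was 18.2, 713 and 225 in the IFNko TGFB1 KO livers, and Prg2, major basic protein, was 12.4, 2632 and 725. Siglecf, a lectin of eosinophils and some macrophages on the same list, was 62.1, 66.3 and 39.5 in these livers, so liver 1 did not stand low for it. In livers 1, 2 and 3 Retnla was 139.9, 1004 and 161 and Alox15 was 44.3, 480.5 and 54.7. The peak in liver 2 was not confined to eosinophil genes, nor to Retnla and Alox15. Chil3, Clec10a, Mrc1 and Il13ra2 also had their highest signal of all livers there, at 478, 158, 2979 and 168. Summed signals in livers 1, 2 and 3 were 38984, 55486 and 42769 for macrophage markers and 2106, 2826 and 1794 for T cell markers. They were 398, 955 and 364 for mast cell and basophil markers. Hepatocyte markers were lowest in liver 2, at 139893, 108852 and 158553. None of the 3 eosinophil genes tested above the filter passed in any comparison, and none of the 5 was listed at 0 on any array. Siglecf lay under the filter and rose in IFNko TGFB1 KO against INFko TGFB+ in a fit without it (1.48 ± 0.24, limma adjusted p = 0.002). The part of eosinophils in the Retnla and Alox15 signals of IFNko TGFB1 KO 2 was not tested.

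**Figure D4:**
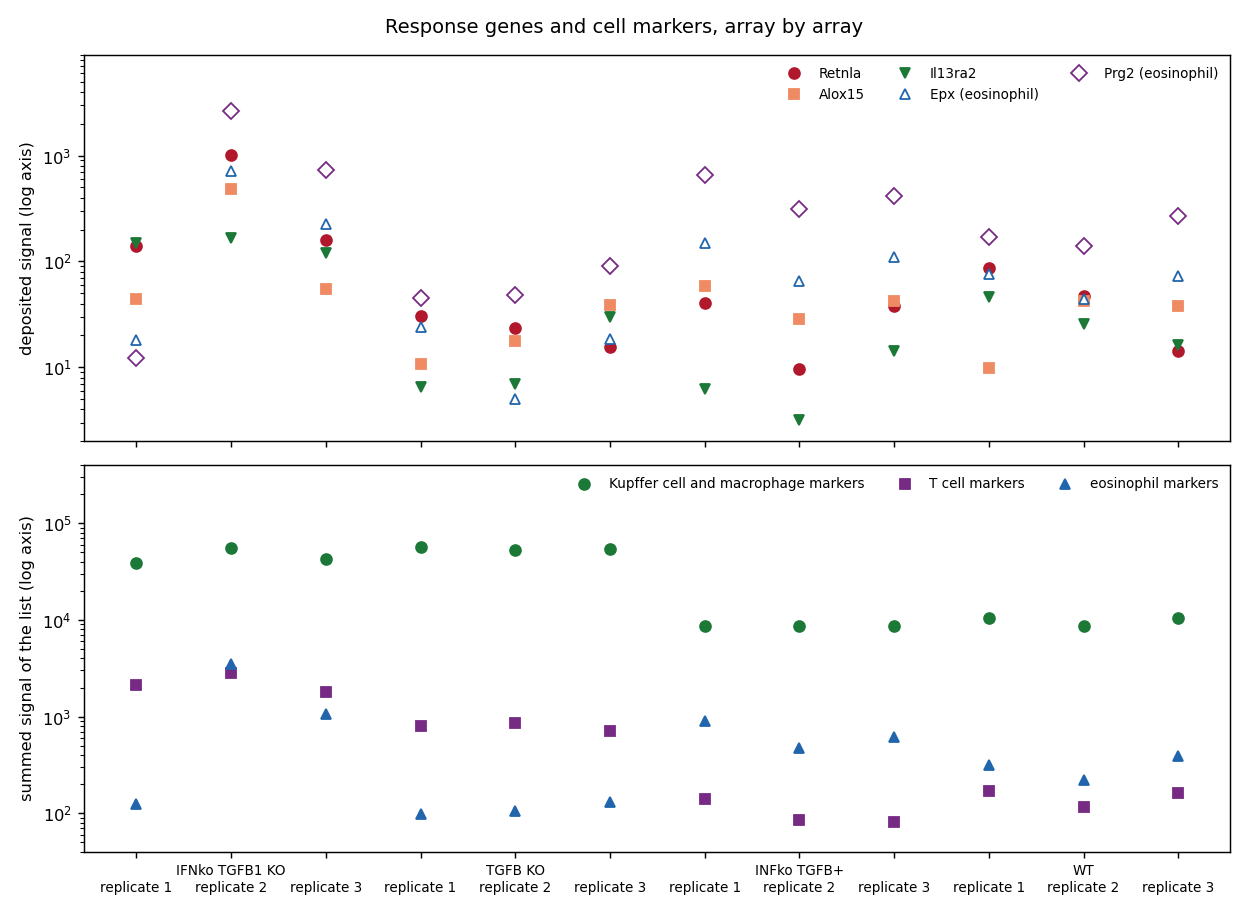
Deposited signal of Retnla, Alox15, Il13ra2 and the eosinophil genes Epx and Prg2 in each of the 12 livers (upper panel), and summed signal of the Kupffer cell and macrophage, T cell and eosinophil markers (lower panel), both on log axes. Retnla, Alox15, Epx and Prg2 peak in IFNko TGFB1 KO 2, whereas Il13ra2 lies at 149, 168 and 120.4 across the IFNko TGFB1 KO livers.

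All 7 T cell markers rose in both effects of Tgfb1 loss, and 4 of 7 were higher in IFNko TGFB1 KO than in TGFB KO. Among all genes, 2.54% were higher in IFNko TGFB1 KO than in TGFB KO. The summed signal of the T cell markers was 1794 to 2826 in IFNko TGFB1 KO, 711 to 855 in TGFB KO, 81.2 to 141 in INFko TGFB+ and 117 to 170.4 in WT livers. Granulocyte precursors are known to carry Chil3. Of 11 neutrophil and granulocyte precursor markers, 8 rose in IFNko TGFB1 KO against INFko TGFB+ and 7 in TGFB KO against WT. In these comparisons 12.7% and 12.2% of all genes were higher. The summed signal of the 11 markers was 21539, 58432 and 37493 in the IFNko TGFB1 KO livers, where Chil3 was 137, 478 and 237. It was 25680.3 to 40524 in TGFB KO, 9999 to 16343 in INFko TGFB+ and 7019 to 14705 in WT livers. The part of T cells and of granulocytes in these results was not tested.

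Upstream of the 9 genes, the ligands themselves were dim. Il4 signal ran from 0.809 to 15.6 in IFNko TGFB1 KO, 2.72 to 17.4 in TGFB KO, 2.61 to 24.6 in INFko TGFB+ and 1.69 to 12.8 in WT livers. Il13 ran from 4.35 to 16.9, 7.51 to 31.6, 9.23 to 22.6 and 4.73 to 37.7 in the same groups. Both lay under the filter and overlapped between groups except Il13, whose IFNko TGFB1 KO livers were all below its INFko TGFB+ livers after normalization. In a fit without the filter neither passed in any comparison. These signals do not show how much cytokine was present.

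Of 17 genes for type 2 cytokines, their inducers and receptors, 16 had a probe set and 5 were tested. Of these, 2 rose in IFNko TGFB1 KO against INFko TGFB+ and 3 in TGFB KO against WT, and none fell, with medians of 0.61 and 1.01. Among all genes, 12.7% and 12.2% were higher there. Il33, an epithelial and endothelial alarmin that induces type 2 cytokines, rose by 1.50 ± 0.24 and 1.01 ± 0.24 in these comparisons (limma adjusted p = 0.0012 and 0.0098). Csf2rb, the beta chain of the IL-5, IL-3 and GM-CSF receptors, rose by 3.24 ± 0.27 and 3.72 ± 0.27. Il17rb, the IL-25 receptor, rose in TGFB KO against WT by 1.25 ± 0.26 (limma adjusted p = 0.0049) and was lower in IFNko TGFB1 KO than in TGFB KO by -1.11 ± 0.26 (limma adjusted p = 0.0311).

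Of 15 genes on a list for IL-4 and IL-13 signalling, which includes Stat6 and brakes on signalling, 14 were tested. In IFNko TGFB1 KO against INFko TGFB+ 4 rose and 2 fell (median 0.53), and in TGFB KO against WT 6 rose and 3 fell (median 0.61). Of all genes, 12.7% were higher and 13.1% lower in IFNko TGFB1 KO against INFko TGFB+, and 12.2% and 11.9% in TGFB KO against WT. Stat6 itself averaged 487 ± 94.2 in IFNko TGFB1 KO livers against 243 ± 34.7 in INFko TGFB+ livers (SD, n = 3 each), a rise of 0.95 ± 0.19 (limma adjusted p = 0.0035). It averaged 596 ± 72.3 in TGFB KO livers against 298 ± 38.5 in WT livers, a rise of 0.91 ± 0.19 (limma adjusted p = 0.0046). Jak2, a kinase of cytokine receptors, rose by 0.85 ± 0.18 in IFNko TGFB1 KO against INFko TGFB+ and by 1.09 ± 0.18 in TGFB KO against WT. Ptpn6 (SHP-1), a phosphatase that dampens STAT6, rose by 1.18 ± 0.16 and 1.88 ± 0.16 in these comparisons. Socs2, a brake on growth hormone signalling, fell by -1.34 ± 0.22 and -2.10 ± 0.22, and Irs1, an adaptor of the insulin and IL-4 receptors, fell in TGFB KO against WT by -2.23 ± 0.32. Irs1 signal also averaged 243 ± 123 in IFNko TGFB1 KO against 515 ± 54.6 in INFko TGFB+ livers (SD, n = 3 each).

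Socs1, a brake on IFN-gamma and IL-4 signalling that IFN-gamma induces, averaged 23.4 ± 6.52 in IFNko TGFB1 KO livers, 143 ± 26.4 in TGFB KO livers, 6.92 ± 5.41 in INFko TGFB+ livers and 32.7 ± 15.1 in WT livers (SD, n = 3 each). It was lower in IFNko TGFB1 KO than in TGFB KO by -2.06 ± 0.27 (limma adjusted p = 0.0012), where Retnla, Chil4 and Il13ra2 were higher. Without a filter, Retnla and Chil4 did not pass there (limma adjusted p = 0.0514 and 0.0702). The Socs1 means in the IFNko TGFB1 KO and INFko TGFB+ livers lay near or under the filter signal of 22.0. A link between Socs1 and these genes was not tested. Socs2 was higher there, by 0.89 ± 0.22 (limma adjusted p = 0.0433).

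Of 23 other genes of alternatively activated macrophages, 17 were tested. They included 8 that rose in IFNko TGFB1 KO against INFko TGFB+ and 10 that rose in TGFB KO against WT, with medians of 0.98 and 1.44, and none fell. Among all genes, 12.7% and 12.2% were higher in these comparisons. Msr1 and Cd163, scavenger receptors, and Clec7a, the beta-glucan receptor, rose by 2.31 ± 0.16, 2.00 ± 0.24 and 3.54 ± 0.25 in IFNko TGFB1 KO against INFko TGFB+, and Egr2, a transcription factor, rose by 1.74 ± 0.22. In TGFB KO against WT, Msr1 rose by 2.38 ± 0.16, Clec7a by 3.32 ± 0.25, Ccl24, an eosinophil-attracting chemokine, by 3.10 ± 0.27 and Tgm2, a transglutaminase, by 2.14 ± 0.19. Genes named for 1 comparison also differed in the other. Cd163 averaged 658 ± 19.4 in TGFB KO against 128 ± 47.4 in WT livers, and Egr2 109 ± 31.9 against 9.67 ± 3.14. Ccl24 averaged 528 ± 211 in IFNko TGFB1 KO against 115 ± 17.8 in INFko TGFB+ livers, and Tgm2 4369 ± 206 against 2041 ± 111 (SD, n = 3 each).

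Of these 17, 3 were lower in IFNko TGFB1 KO than in TGFB KO livers and none was higher, where 2.82% of all genes were lower and 2.54% higher. Ccl24 was lower there by -1.06 ± 0.27, Tgm2 by -1.03 ± 0.19 and Pdcd1lg2, the PD-1 ligand PD-L2, by -1.41 ± 0.30 (limma adjusted p = 0.0434, 0.0088 and 0.0205). Among 12 resistin, chitinase and lipoxygenase relatives, 7 were tested. Alox5ap, the 5-lipoxygenase activating protein, rose in IFNko TGFB1 KO against INFko TGFB+ by 2.42 ± 0.38 and in TGFB KO against WT by 2.92 ± 0.38. Chil1, another chitinase-like protein, rose in TGFB KO against WT by 1.72 ± 0.43 (limma adjusted p = 0.0134), and no other member of that list passed.

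**Figure D5:**
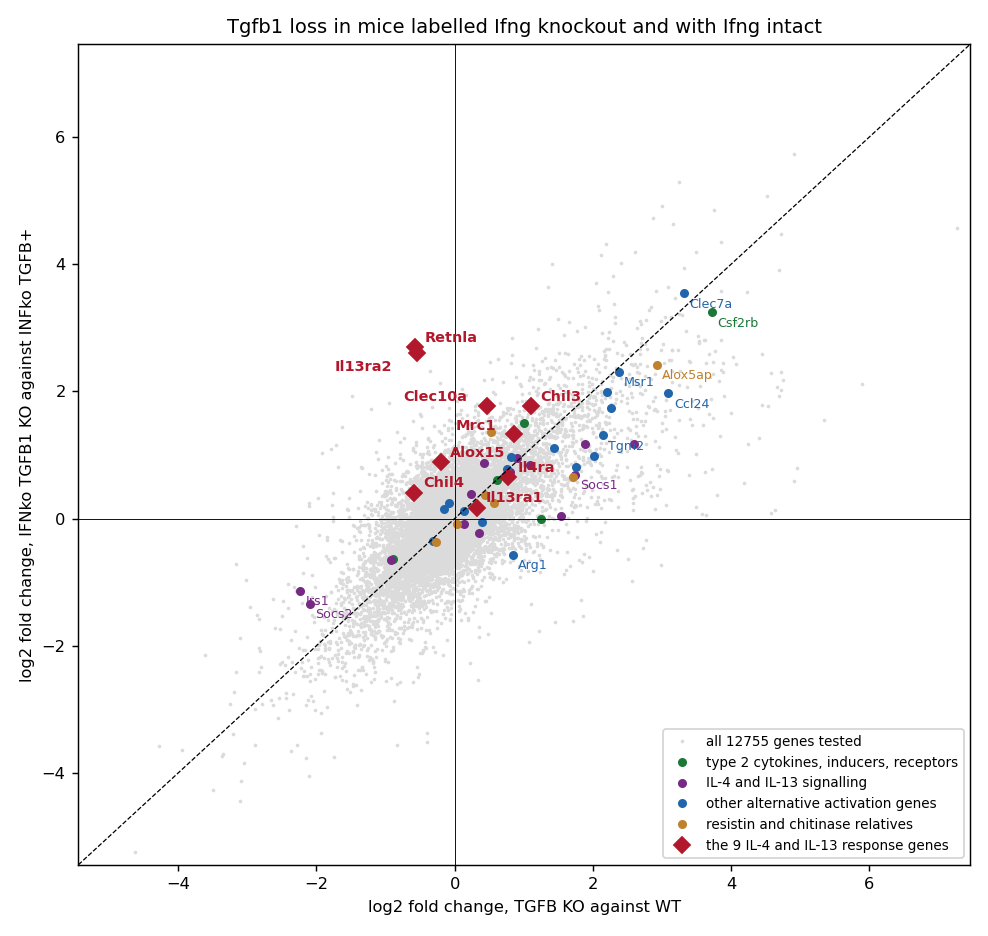
Log2 fold change in IFNko TGFB1 KO against INFko TGFB+ (vertical axis) set against TGFB KO against WT (horizontal axis) for all 12755 genes tested (grey), the related lists (coloured points) and the 9 genes (diamonds), with the line of equal change dashed. Il13ra2 and Retnla lie far above the line, at 2.60 and 2.69 against -0.54 and -0.57, while Mrc1 and Il4ra lie near it.

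The 9 genes did not follow a single pattern over the 12 arrays. By Pearson correlation of normalized log2 levels, given as a description over 12 arrays that share the groups and the normalization, Retnla and Il13ra2 gave 0.83, Chil3 and Clec10a 0.85, and Clec10a and Mrc1 0.84. Chil3 and Chil4 gave -0.0021, and Il4ra gave 0.15 with Retnla. Chil4 lay near the filter of 5.25, with group means from 4.58 to 5.98, which limits what its correlations show. Among all genes tested, those most like Retnla were Col1a2, Sub1 and Tfdp1 (0.95, 0.95 and 0.94), and those most like Il13ra2 were Dcn, Rpl27 and Eif3c (0.95, 0.94 and 0.93). Those most like Chil3 were Slc7a1, Limk1 and Ccdc115 (0.95, 0.95 and 0.93), and those most like Chil4 were Rpa1, Prmt7 and Npr3 (0.93, 0.93 and 0.92). Those most like Il4ra were Tlnrd1, Slc38a1 and Napg (0.96, 0.96 and 0.95), and those most like Il13ra1 were Rp2, Bmpr2 and Fga (0.86, 0.81 and 0.80). Those most like Mrc1 were Txnip, Ccl9 and Wasf2 (0.98 each), those most like Clec10a were Penk, S100a13 and Arhgap4 (0.97, 0.94 and 0.93), and those most like Alox15 were Rnf44, Stk11ip and Myh11 (0.93, 0.92 and 0.90).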

How the data were processed

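Total RNA of 12 BALB/c mouse livers was extracted with Trizol and biotin labelled for 12 arrays of 45101 probe sets, per the labels. Each probe set has 1 deposited signal intensity on a linear scale, and all arrays share a trimmed mean of 150.0. Neither the summary algorithm nor a normalization step by the authors is stated in the labels, and no detection calls were used. Groups follow the labels. The unnumbered INFko TGFB+ array was called replicate 1, the number left over. Labels give 1 mouse per array, and no pair of arrays held identical values (0 pairs). The number of arrays limits the precision.

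A pseudocount of 16 was added, log2 taken and quantile normalization applied over the 12 arrays. Of the probe sets, 34958 carry 1 symbol, 932 several and 9211 none in the platform annotation; 34754 symbols were updated by gene ID through RefSeq (GRCm38.p6). The 64 control probe sets were not tested. Each gene was represented by its brightest single-symbol probe set, and probe sets under the 40th percentile of the mean were left out (log2 level 5.25), which left 12755 genes. The test was limma 3.58.1 in R 4.3.3 (lmFit with 4 group means over the 12 arrays, eBayes, 8 residual and 3.44 prior degrees of freedom), two-sided, with Benjamini-Hochberg adjustment over all genes. The scripts were tested on simulated data. The 5 contrasts were IFNko TGFB1 KO against INFko TGFB+, TGFB KO against WT, their difference, IFNko TGFB1 KO against TGFB KO, and INFko TGFB+ against WT. A log2 fold change is given ± its standard error, and a group mean ± SD.

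The members, gene lists, contrasts and alternatives were chosen with earlier results of these data known. Named are the 9 genes, Tgfb1 and Ifng, up to 4 genes per pathway list and contrast with the smallest p past the threshold, and the 3 genes most correlated with each member. Outside this rule, Epx, Prg2, Siglecf, Siglech, Gata3, Il4, Il13, Il5, Mgl2, Ccl22 and Arg1 were taken from the lists after their values were seen. Of 4 pathway and 11 cell type lists, those for monocytes, dendritic cells, mast cells and basophils, erythroid cells and other tissues are given with the closing observations. Alternatives changed the normalization (median centring, or none beyond the deposited scaling), the pseudocount (1 or 64), the filter (60th percentile, or none), the probe set rule (mean of a gene's probe sets) and the fit (only the groups compared, an intensity trend, a replicate block), or left out each array in turn.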

Additional observations from a re-analysis of the deposited data

Results flagged for a closer look

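The effect of Tgfb1 loss on Il13ra2 differed between mice labelled Ifng knockout and mice with Ifng intact by a test of the difference itself. The difference was 3.14 ± 0.43 on the log2 scale (limma adjusted p = 0.0064), from 2.60 in IFNko TGFB1 KO against INFko TGFB+ and -0.54 in TGFB KO against WT. All 3 IFNko TGFB1 KO livers, at 120.4 to 168, lay above all 9 others, of which the highest was WT 1 at 46.5. On leaving out each array in turn it stayed between 2.93 and 3.49, with adjusted p between 0.0024 and 0.0269. The other groups lay near or under the filter signal of 22.0, so the size of the fold change depends on the pseudocount and ran from 1.65 to 5.03 over the other alternatives tested. Il13ra2 passed the filter only with the IFNko TGFB1 KO arrays, where it is high.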

How the results depend on the processing

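Il13ra2 kept its call in IFNko TGFB1 KO against INFko TGFB+, against TGFB KO and in the difference of effects in every alternative that tested it. Clec10a and Mrc1 kept theirs in IFNko TGFB1 KO against INFko TGFB+ likewise, with adjusted p up to 0.0436 and 0.0432. The number of members called in IFNko TGFB1 KO against INFko TGFB+ (5) was 3 with the 60th percentile filter (which leaves 5 members tested, without Il13ra2 and Clec10a), 3 with only the 2 groups compared and 3 to 6 on leaving out each array. The number reached 6 among the other alternatives, where Il4ra passed with the deposited scaling alone (limma adjusted p = 0.0451). In TGFB KO against WT (2) it was 1 with a pseudocount of 1, without a filter and with only the 2 groups compared, and 0 to 2 on leaving out each array. The number reached 3 among the other alternatives, where Il13ra1 passed with the mean of probe sets (limma adjusted p = 0.0492). In the difference of effects (1) it was 0 with the 60th percentile filter, where Il13ra2 was not tested, and 1 on leaving out each array. In IFNko TGFB1 KO against TGFB KO (3) it was 1 with a pseudocount of 1, without a filter, with the 60th percentile filter and with only the 2 groups compared, and 1 to 3 on leaving out each array. The cause of these changes was not tested beyond the number of genes and arrays left.

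With the replicate number as a block, members called in IFNko TGFB1 KO against TGFB KO fell to 1 (Il13ra2), with Retnla at an adjusted p of 0.0537 and Chil4 at 0.0661, while Il4ra passed in IFNko TGFB1 KO against INFko TGFB+ (0.0427). Deviations of same-numbered arrays correlated at a median of 0.0013 over 18 pairs (-0.077 to 0.343), and 6 of 12 arrays correlated best with their own number, so the numbers were not taken to pair the samples.

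Changes of sign touched only differences that had not passed. Those without an array left out were Mrc1 in the difference of effects with median centring (-0.0091) and Il13ra1 in INFko TGFB+ against WT with the mean of probe sets (0.0937). On leaving out each array, Alox15 ran from -0.62 to 0.038 in TGFB KO against WT and from -0.15 to 1.62 in IFNko TGFB1 KO against INFko TGFB+. In the difference of effects Il13ra1 ran from -0.42 to 0.17 and Il4ra from -0.31 to 0.15, and in IFNko TGFB1 KO against TGFB KO Chil3 ran from -0.093 to 0.87. In INFko TGFB+ against WT, Retnla ran from -0.85 to 0.00025, Chil3 from -0.59 to 0.12, Chil4 from -0.0083 to 0.64 and Mrc1 from -0.051 to 0.083.

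Median centring moved the median of all genes to -0.15 in IFNko TGFB1 KO against INFko TGFB+ (988 higher and 1866 lower, against 1619 and 1673), to -0.25 in the difference of effects (9 and 101, against 31 and 80) and to -0.14 in IFNko TGFB1 KO against TGFB KO (100 and 388, against 324 and 360). In TGFB KO against WT it gave 1449 higher and 894 lower, against 1553 and 1524, and in INFko TGFB+ against WT it moved the median to 0.10. Over all genes, calls in the difference of effects (111) numbered 57 and 212 with pseudocounts of 1 and 64, 173 with an intensity trend and 46 to 165 on leaving out each array. Those in IFNko TGFB1 KO against TGFB KO (684) numbered 213 with only the 2 groups compared and 320 to 728 on leaving out each array.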

Other observations

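Some related genes lay under the filter and were fitted without it over 18193 genes, a step added after seeing the data, in which 15.6% of all genes were called in IFNko TGFB1 KO against INFko TGFB+ and 14.1% in TGFB KO against WT. Of the 33 list genes under the filter, 2 rose in IFNko TGFB1 KO against INFko TGFB+. Siglecf, an eosinophil and macrophage lectin, had signals of 62.1, 66.3 and 39.5 in the IFNko TGFB1 KO livers, against 1.22, 12.9 and 3.70 in the INFko TGFB+ livers (1.48 ± 0.24, limma adjusted p = 0.002). It was also higher than in the TGFB KO livers, which had 11.9, 16.6 and 8.20 (1.13 ± 0.24, limma adjusted p = 0.031). Gata3, the transcription factor of type 2 helper cells that other T cells and innate lymphoid cells also carry, had 17.4, 82.0 and 28.6 in the IFNko TGFB1 KO livers, against 1.88, 1.37 and 2.54 in the INFko TGFB+ livers (1.38 ± 0.41, limma adjusted p = 0.0404). Siglech, a plasmacytoid dendritic cell lectin, fell in TGFB KO against WT, at -1.10 ± 0.32 (limma adjusted p = 0.0402).

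Others did not pass in IFNko TGFB1 KO against INFko TGFB+. Mgl2, a close relative of Clec10a, had signals of 28.3, 54.0 and 28.7 in the IFNko TGFB1 KO livers against 9.50, 9.75 and 13.9 in the INFko TGFB+ livers (0.76 ± 0.29, limma adjusted p = 0.111). Ccl22, a macrophage chemokine that IL-4 induces, had 11.5, 159 and 29.5 against 4.56, 1.43 and 13.1 in the same groups (1.25 ± 0.58, limma adjusted p = 0.189), with its highest signal in IFNko TGFB1 KO 2. Il5, the eosinophil growth factor, had 33.0, 23.9 and 11.7 against 9.35, 2.85 and 8.06 (0.58 ± 0.23, limma adjusted p = 0.124). Arg1, an enzyme of alternatively activated macrophages that hepatocytes carry at high level, had 4523, 5383 and 7022 in the IFNko TGFB1 KO livers and 9210 to 16650.1 in the TGFB KO livers, against 7896 to 9687 in the INFko TGFB+ livers and 4780 to 8739 in the WT livers. Arg1 rose in TGFB KO against WT (0.84 ± 0.25, limma adjusted p = 0.0296) and did not pass in IFNko TGFB1 KO against INFko TGFB+ (-0.57, limma adjusted p = 0.119) or against TGFB KO (-0.92 ± 0.25, limma adjusted p = 0.0554).

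Of the other cell marker lists, 6 of 7 monocyte genes rose in both effects of Tgfb1 loss, and 1 fell in TGFB KO against WT. Of 5 tested mast cell and basophil genes, 1 rose in IFNko TGFB1 KO against INFko TGFB+ and 2 in TGFB KO against WT. Of 4 tested dendritic cell genes, 1 rose in each. Of 4 tested erythroid genes, none passed in IFNko TGFB1 KO against INFko TGFB+ and 1 rose in TGFB KO against WT. Of 3 tested genes of adipose tissue, pancreas and intestine, 3 and 2 fell in these comparisons, and of 8 hepatocyte genes 2 and 0 fell. Among all genes, 12.7% were higher and 13.1% lower in IFNko TGFB1 KO against INFko TGFB+, and 12.2% and 11.9% in TGFB KO against WT. The mast cell and basophil, dendritic cell and erythroid lists are too short for their counts to set them apart from all genes.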
